A study of Homo sapiens with 12 samples.

Results

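The alcohol and retinol dehydrogenases described here were 10 genes of 60675 gene IDs in the count table: ADH1C, ADH5, ADH6, DHRS3, DHRS9, RDH10, RDH11, ALDH1A1, ALDH1A3 and ALDH2. They were taken by symbol, each symbol matched 1 Ensembl ID, and they had been chosen by their CPM in the vehicle, low, medium and high groups, with earlier results of these data known. The values that chose them are therefore given as a description, without p-values. HT29 cells, a human colorectal adenocarcinoma line, were exposed for 24 h to a hot water extract of Aconitum carmichaeli Debeaux (ACD), a root used in traditional medicine, or to the vehicle. The low dose of the extract was 20 µg/mL, the medium dose was 100 µg/mL and the high dose was 500 µg/mL. The vehicle was PBS with 2% DMSO, in which the extract stock was also made. The extract was added to growth medium, so 2% was not the final DMSO level of the treated wells. The volume of vehicle added is not stated, so 2% should not be read as the final level of the vehicle wells either. Each of the 4 groups had 3 libraries, all from the same cell line, and a carcinoma line is a limited model of the gut lining. A longer treatment note kept with the libraries describes an extract of another herb, Poria cocos, whereas the titles and the treatment field name ACD, by which the libraries were grouped.

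Alcohol dehydrogenases (ADH) oxidise alcohols such as ethanol to aldehydes, and aldehyde dehydrogenases (ALDH) carry the aldehyde on to the acid. The same pair of steps turns vitamin A into its hormone form: retinol is oxidised reversibly to retinal by retinol dehydrogenases of the short-chain family (RDH, DHRS) and by some ADH enzymes, and retinal is then oxidised irreversibly to retinoic acid by the ALDH1A enzymes. Retinoic acid binds nuclear receptors (RAR, paired with RXR) that control transcription, and the intestinal epithelium is a site where vitamin A from food is taken up and converted.

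The totals lay between 15941255 expected counts, in high-dose replicate 2, and 33866644, in high-dose replicate 3. Levels are given as CPM, read counts scaled to a common library total, after TMM scaling, and as CPM per kb of the canonical transcript where genes are compared with each other. All 9 epithelial markers (EPCAM, KRT8, KRT18, KRT19, KRT20, CDH1, VIL1, CDX2 and CEACAM5) were over 1 CPM in every group. KRT8 and KRT18 were highest, with vehicle means of 6440 and 3490 CPM, and CDX2 and CEACAM5 were lowest, at 5.02 and 6.12 CPM. Only CEACAM5 of the 9 passed the thresholds given below at the high dose (log2 fold change 0.70 ± 0.14, adjusted p = 0.0132, edgeR). The 10 markers of blood, stroma, endothelium and liver summed to 10.8 to 12.3 CPM in the vehicle libraries and 13.4 to 15.5 CPM at the high dose, against at least 10800 CPM for the epithelial markers in every library, with 2 to 4 of the 10 over 1 CPM in a group. CD68 held most of that sum (means of 7.23 CPM in the vehicle group and 10.7 CPM at the high dose), COL1A2 had 0 counts, and PTPRC, CD3E, PDGFRB, VWF and ALB had at most 3 counts in a library. CYP1A1, a cytochrome P450 induced through the aryl hydrocarbon receptor, was used as a check of the treated libraries. It was at 0.110, 0.394 and 0.352 CPM in the vehicle libraries and at 92.1, 102 and 101 CPM at the high dose (adjusted p = 4.89e-08, edgeR). High-dose replicate 2 stood apart from the other libraries: the SD over genes of its log2 differences from the mean of the other libraries of its group was 0.50, against 0.10 to 0.29 in the other 11. The mitochondrial ribosomal RNAs MT-RNR1 and MT-RNR2 took 1.14% to 1.22% of the counts in the vehicle libraries. With the medium dose this was 1.96% to 2.18%, and with the high dose 11.3% to 12.5%. Their part in the levels below was not tested, nor was that of the marker genes.

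A differentially expressed gene (DEG) had to pass a threshold of 0.05 on the adjusted p and of 1.5 on the fold change. Under the high dose, 4 of the 10 genes were DEGs: ALDH1A3 and DHRS9 were higher, and ADH1C and ADH6 were lower. Of the 15374 genes tested, 2.93% were DEGs at that dose, 1.26% higher and 1.68% lower. ALDH1A3 was the 1 DEG among the 10 with the medium dose, where 0.676% of the genes tested were DEGs (0.384% higher). It was also the 1 DEG with the low dose, where 0.111% were (0.0650% higher). The median log2 fold change of the 10 was 0.16, 0.02 and 0.03 at the high, medium and low doses, against −0.01 to 0.01 over all genes tested. All 10 passed the filter on low counts, and each had at least 10 counts in every library. The choice of the 10 used these contrasts, so nothing is read from their counts against the background. The promoters of the 4 are shown because these genes carry the differences described below. Each line holds the 250 bases before the RefSeq start site (GRCh38.p14), 5′ to 3′ on the strand of the gene, and capitals mark matches to the motifs described next.
ALDH1A3: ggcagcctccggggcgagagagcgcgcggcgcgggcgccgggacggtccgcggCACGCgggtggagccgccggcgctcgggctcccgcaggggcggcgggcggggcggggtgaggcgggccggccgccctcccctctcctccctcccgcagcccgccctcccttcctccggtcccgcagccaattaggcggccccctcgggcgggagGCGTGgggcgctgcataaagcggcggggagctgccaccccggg
DHRS9: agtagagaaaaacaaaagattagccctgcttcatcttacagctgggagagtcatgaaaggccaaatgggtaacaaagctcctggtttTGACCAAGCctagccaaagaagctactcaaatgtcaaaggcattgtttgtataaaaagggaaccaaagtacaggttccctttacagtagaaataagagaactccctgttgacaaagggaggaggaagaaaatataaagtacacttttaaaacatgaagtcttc
ADH1C: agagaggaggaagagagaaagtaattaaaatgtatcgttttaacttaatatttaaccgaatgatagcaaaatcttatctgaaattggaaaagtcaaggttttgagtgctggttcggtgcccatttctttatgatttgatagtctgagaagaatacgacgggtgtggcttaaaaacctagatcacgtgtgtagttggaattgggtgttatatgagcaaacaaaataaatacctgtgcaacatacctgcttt
ADH6: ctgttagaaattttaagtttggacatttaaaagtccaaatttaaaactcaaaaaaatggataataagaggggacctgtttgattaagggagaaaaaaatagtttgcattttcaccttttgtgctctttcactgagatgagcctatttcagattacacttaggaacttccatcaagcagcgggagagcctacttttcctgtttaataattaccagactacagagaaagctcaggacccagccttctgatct

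The ALDH1A3 window is at chr15:100879581-100879830 on the plus strand, and the DHRS9 window is at chr2:169066827-169067076 on the plus strand. ADH1C (chr4:99352747-99352996) and ADH6 (chr4:99219247-99219496) lie on the minus strand. The RefSeq starts used differ in part from the GENCODE gene coordinates given below. By the latter, the windows of ALDH1A3, DHRS9 and ADH6 lie inside the gene, and only the ADH1C window lies before it. The matches thus hold for these windows and not for the sequence before the GENCODE starts. Searched on both strands were GCGTG, the core of the element bound by the aryl hydrocarbon receptor, TGACNNNGC, the core of the antioxidant response element, and AGGTCA, a half-site of nuclear receptors. No matches overlapped each other. ALDH1A3 held 2 matches to GCGTG, at 197 and 43 bases before the start, and DHRS9 held 1 match to TGACNNNGC, at 163 bases. ADH1C and ADH6 held no match to any of the 3. Among the 8 of the 10 genes with an entry in the RefSeq table, 3 held GCGTG (ALDH1A3, ADH5 and RDH11), 1 held TGACNNNGC and 0 held AGGTCA. Over 35114 promoters of the same length, the shares were 32.2%, 10.9% and 12.1%. A match says only that these letters are in the window. RDH10 and ALDH2 have no entry.

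**Figure D1:**
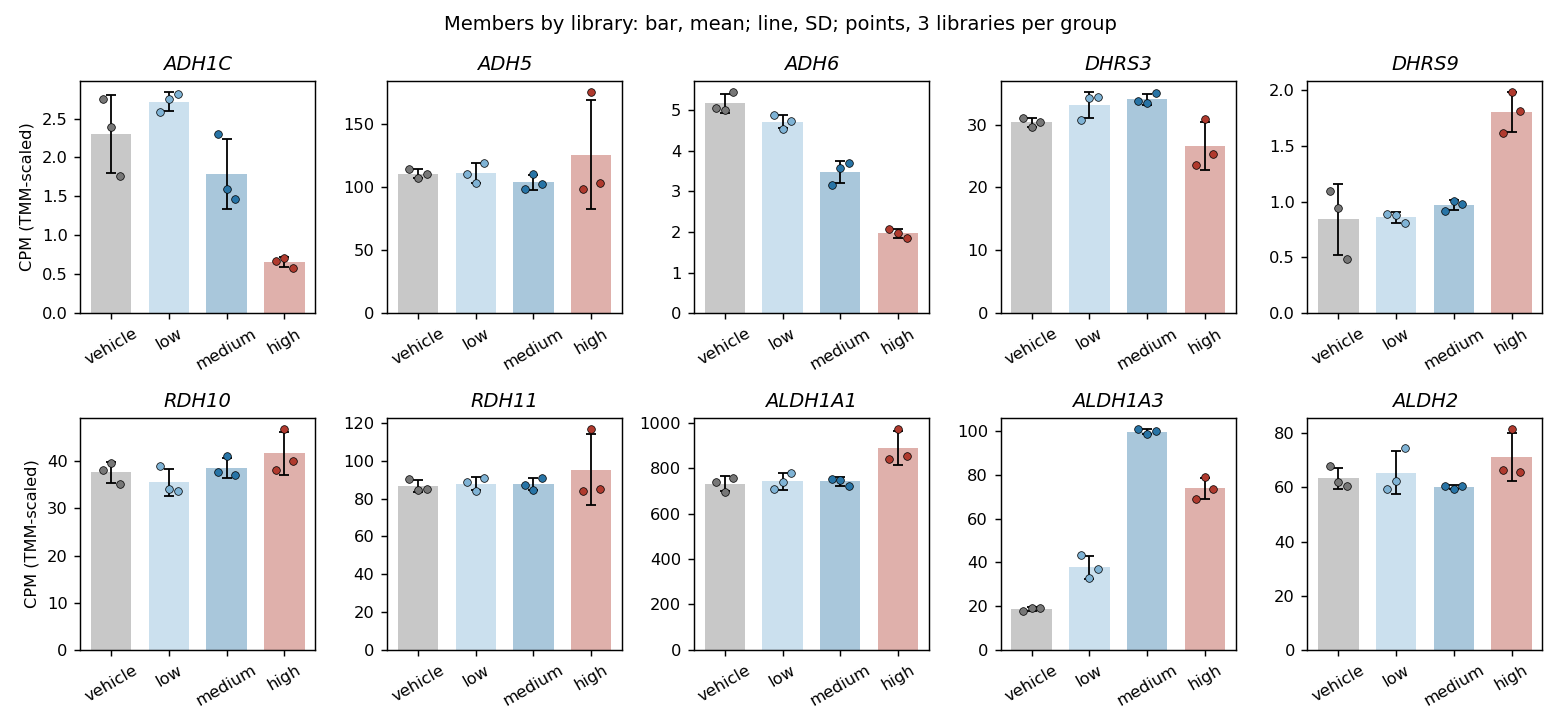
Level of each of the 10 genes in each library, in CPM after TMM scaling, by group. Bars are means, lines are SD and points are the 3 libraries of a group. ALDH1A3 sits between 98.5 and 101 CPM in the medium-dose libraries and between 69.0 and 78.9 CPM in the high-dose libraries, and ADH1C and ADH6 are lowest at the high dose.

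The 3 alcohol dehydrogenases belong to 1 gene cluster on chromosome 4, where 7 ADH genes lie on the minus strand between 99070978 and 99435510 (GRCh38), a span of 364.5 kb. Only ADH1C, ADH5 and ADH6 of the 7 had enough counts to be tested. ADH1B and ADH7 had 0 counts in all 12 libraries, and ADH1A and ADH4 had at most 4 and 2 counts in a library.

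ADH1C (ENSG00000248144, 99336497 to 99352746), a class I enzyme that oxidises ethanol and retinol, was at 2.75, 2.39 and 1.76 CPM in the vehicle libraries, which is 40 to 79 counts. Low-dose libraries held 2.58, 2.75 and 2.82 CPM, and medium-dose libraries held 2.30, 1.60 and 1.47 CPM. At the high dose the levels were 0.675, 0.708 and 0.584 CPM, from 10 to 19 counts. All 3 high-dose libraries were below all 9 others, while the low and medium groups overlapped the vehicle group. The mean at the high dose was 0.285 times the vehicle mean, a log2 fold change of −1.82 ± 0.24 (SE, n = 3 libraries per group). For the medium and low doses the log2 fold changes were −0.37 ± 0.20 and 0.24 ± 0.19. Of 1733 windows of 100 bases in the ADH1C transcripts, 4.10% also occur in another gene, ADH1B, which had no counts.

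ADH6 (ENSG00000172955, 99202638 to 99219537), a class V enzyme whose substrates are little known, was at 5.06, 5.00 and 5.45 CPM in the vehicle libraries. The low-dose libraries held 4.88, 4.55 and 4.74 CPM and the medium-dose libraries 3.17, 3.59 and 3.69 CPM. In the high-dose libraries it was at 2.07, 1.98 and 1.84 CPM. No library of a dose overlapped those of the next lower dose or of the vehicle, so the 4 groups were in the reverse order of the dose. The log2 fold changes were −0.13 ± 0.10, −0.57 ± 0.10 and −1.40 ± 0.11 (SE) at the low, medium and high doses. The medium-dose difference lay below the 1.5-fold threshold, with a mean of 0.673 times the vehicle mean. The ratio was 0.380 for the high dose. ENSG00000246090, a gene on the opposite strand that overlaps exons of ADH6, had a mean of 0.588 CPM in the vehicle group and 0.445 CPM at the high dose. The strand setting of the counting is not stated, so it is not known whether reads of the pair were told apart.

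ADH5 (ENSG00000197894, 99070978 to 99088801), the glutathione-dependent formaldehyde dehydrogenase found in nearly all tissues, was at 114, 107 and 110 CPM in the vehicle libraries. The low-dose libraries lay between 103 and 119 CPM and the medium-dose libraries between 98.5 and 110 CPM. High-dose levels were 98.2, 175 and 103 CPM. Only high-dose replicate 2, the library that stands apart, lay above the range of the other groups. With it, the log2 fold change was 0.18 ± 0.17, and without it the value was −0.13 ± 0.07. ADH5 was no DEG in either case.

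Per kb, ADH5 held 92.4% of the summed level of the 3 alcohol dehydrogenases in the vehicle group, ADH6 4.10% and ADH1C 3.51% (means of 3 libraries). In the high-dose group the shares were 97.5%, 1.55% and 0.983%. The lowest ADH5 share at the high dose, 96.9%, was above the highest in the vehicle group, 93.0%. The 4 tested genes that flank the cluster, EIF4E, METAP1, TRMT10A and DAPP1, were not called at the high dose (log2 fold changes between −0.03 and 0.40, adjusted p = 0.104 to 0.947, edgeR).

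Among the retinol and retinal oxidoreductases, DHRS9 was the 1 DEG. DHRS9 (ENSG00000073737, chromosome 2, 169064789 to 169096167) oxidises retinol to retinal and also acts on steroids. It was at 1.10, 0.940 and 0.483 CPM in the vehicle libraries, from 11 to 31 counts. The low-dose libraries held 0.893, 0.881 and 0.806 CPM, and the medium-dose libraries held 0.918, 1.01 and 0.983 CPM. High-dose libraries held 1.62, 1.98 and 1.81 CPM, from 28 to 59 counts, all above the other 9. The log2 fold change at the high dose was 1.10 ± 0.24 (SE), and the ratio of the means was 2.15. At the lower doses it was 0.04 ± 0.25 and 0.22 ± 0.25. The counts were few, and the call was not kept in every setting. It was lost without vehicle replicate 2 (log2 fold change 1.22) and without high-dose replicate 3 (1.09). It was also lost when vehicle and high-dose libraries were fitted alone in edgeR (1.10) or DESeq2 (1.11). The cause of these losses was not tested.

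DHRS3 (ENSG00000162496, chromosome 1, 12567910 to 12618210) works in the other direction, reducing retinal to retinol. It was at 31.1, 29.7 and 30.4 CPM in the vehicle libraries and at 30.7, 34.2 and 34.4 CPM at the low dose. The medium-dose libraries held 33.7, 33.4 and 35.0 CPM, and the high-dose libraries held 23.5, 30.9 and 25.3 CPM. The medium group thus lay above the vehicle group without overlap, and 2 of the 3 high-dose libraries lay below it. The log2 fold changes were 0.12 ± 0.09, 0.16 ± 0.09 and −0.20 ± 0.10 at the low, medium and high doses, all under the 1.5-fold threshold. Without high-dose replicate 2, the high-dose value was −0.31 ± 0.07.

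RDH10 (ENSG00000121039, chromosome 8, 73294602 to 73325281), a main retinol dehydrogenase of retinoic acid synthesis, was between 35.2 and 39.6 CPM in the vehicle libraries and between 33.8 and 46.9 CPM in the 9 treated ones. RDH11 (ENSG00000072042, chromosome 14, 67676800 to 67695793), which reduces retinal with NADPH, was between 84.5 and 90.5 CPM in the vehicle libraries and between 83.9 and 117 CPM in the treated ones. Both overlapped the vehicle group at every dose. Their highest values were those of high-dose replicate 2. The high-dose log2 fold changes were 0.15 ± 0.09 for RDH10 and 0.13 ± 0.11 for RDH11, and without that library they were 0.06 ± 0.08 and −0.03 ± 0.06. An antisense gene, RDH10-AS1, overlaps RDH10 and had a mean of 0.488 CPM in the vehicle group. For RDH11, 3.86% of the windows of 100 bases also occur in another gene.

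ALDH1A3 differed most from vehicle of the 10, and at every dose. ALDH1A3 (ENSG00000184254, chromosome 15, 100877714 to 100916626, plus strand) oxidises retinal to retinoic acid and is used as a marker of stem-like tumour cells. Its levels were 17.7, 18.9 and 19.2 CPM in the vehicle libraries and 43.3, 33.0 and 36.8 CPM at the low dose. The medium-dose libraries held 101, 98.5 and 100 CPM, and the high-dose libraries held 69.0, 78.9 and 73.5 CPM. No groups overlapped. The order did not follow the dose, since all 3 medium-dose libraries were above all 3 high-dose libraries. The mean was 2.03, 5.37 and 3.97 times the vehicle mean at the low, medium and high doses, with log2 fold changes of 1.02 ± 0.10, 2.42 ± 0.10 and 1.99 ± 0.10 (SE). Over 19 alternative settings the ranges were 0.91 to 1.11, 2.39 to 2.45 and 1.94 to 2.03, and ALDH1A3 was a DEG at each dose under all 19. An antisense gene, ALDH1A3-AS1, overlaps exons of ALDH1A3 and had means of 10.7, 15.3, 22.7 and 16.1 CPM in the vehicle, low, medium and high groups. It was also highest at the medium dose, and it is not known whether reads of the pair were told apart.

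**Figure D2:**
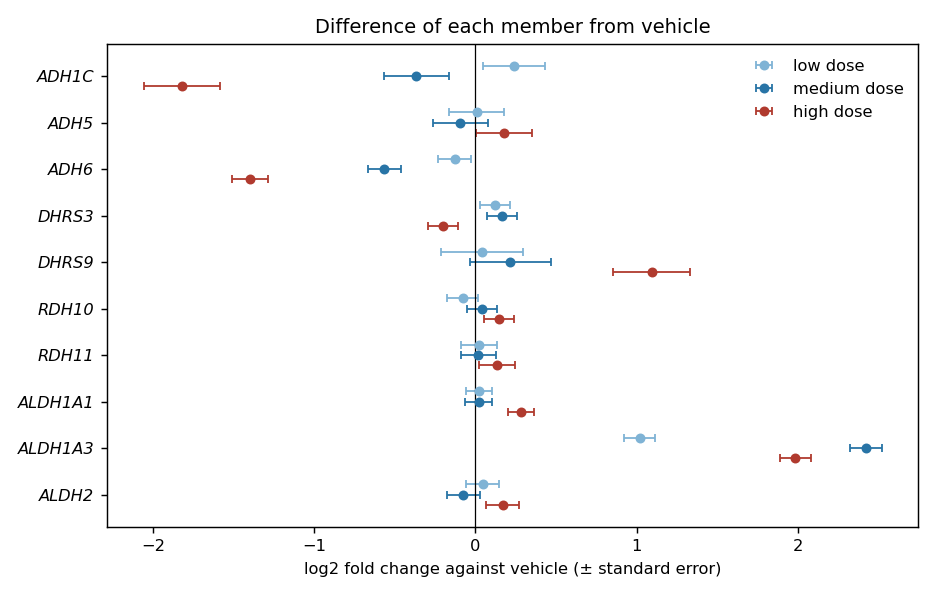
Log2 fold change of each gene against vehicle at the low, medium and high doses, with standard errors from the fit (3 libraries per group). ALDH1A3 lies farthest to the right, with its medium-dose point (2.42) beyond its high-dose point (1.99), and ADH1C (−1.82) and ADH6 (−1.40) lie farthest to the left at the high dose.

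ALDH1A1 (ENSG00000165092, chromosome 9, 72900671 to 73080442), another cytosolic enzyme of the same reaction, was at 742, 697 and 760 CPM in the vehicle libraries. The low-dose libraries lay between 709 and 782 CPM and the medium-dose libraries between 722 and 755 CPM. High-dose libraries held 840, 975 and 855 CPM, all above the other 9. The difference was small, a log2 fold change of 0.28 ± 0.08 (0.21 ± 0.06 without high-dose replicate 2), and ALDH1A1 was no DEG. ALDH2 (ENSG00000111275, chromosome 12, 111766887 to 111817532), the mitochondrial enzyme that clears acetaldehyde from ethanol, was between 60.5 and 67.8 CPM in the vehicle libraries, 59.3 and 60.6 CPM in the medium-dose ones and 65.8 and 81.7 CPM in the high-dose ones. It overlapped the vehicle group at every dose, with log2 fold changes of 0.04 ± 0.10, −0.08 ± 0.10 and 0.17 ± 0.10. Without high-dose replicate 2, the high-dose value of ALDH2 was 0.06 ± 0.08. For ALDH2, 5.87% of the windows of 100 bases also occur in other genes.

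By level per kb, the order in the vehicle group was ALDH1A1 (350 CPM per kb), ADH5 (41.6), RDH11 (34.1), DHRS3 (13.8), RDH10 (9.50), ALDH2 (6.63), ALDH1A3 (5.36), ADH6 (1.85), ADH1C (1.58) and DHRS9 (0.534). ADH6 and ADH1C were the only neighbours in that order whose libraries overlapped. ALDH1A3 stood 7th in the vehicle libraries, 5th in the low-dose libraries (10.9, overlapping RDH10) and 4th with the medium and high doses (28.8 and 21.3). DHRS9 moved from last to 8th at the high dose (1.15), above ADH6 (0.702) and ADH1C (0.451). Its place above ADH6 rests on the transcript lengths used, 1574 bases for DHRS9 and 2802 for ADH6. In CPM, ADH6 (mean 1.97) was above DHRS9 (1.81) at the high dose, with overlapping libraries. Other places rest on the lengths too. In CPM, ALDH2 (mean 63.4) was above RDH10 (37.6) and DHRS3 (30.4) in the vehicle group. ALDH1A3 (99.8) was above RDH11 (87.7) at the medium dose. ALDH1A1 stayed far above its relative: ALDH1A3 made 1.51%, 2.98%, 7.51% and 4.77% of the summed level of both in the vehicle, low-dose, medium-dose and high-dose groups. In these bulk libraries, fewer cells with a transcript and less transcript per cell cannot be told apart.

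For 3 of the 10 genes, all high-dose libraries were above the vehicle libraries (ALDH1A1, ALDH1A3 and DHRS9), and for 2 all were below (ADH1C and ADH6). Of the genes tested, 22.0% did not overlap between these groups, 10.5% above and 11.5% below. With the medium dose, DHRS3 and ALDH1A3 were above and ADH6 was below, where 28.7% of the genes tested did not overlap (14.5% above, 14.1% below). With the low dose, ALDH1A3 was above and ADH6 below, where 21.0% did not overlap (11.4% above, 9.61% below). Across the 12 libraries, log2 CPM of ADH1C and ADH6 had a Pearson correlation of 0.91. ADH5 and RDH11 had one of 0.93, and both were highest in high-dose replicate 2. ADH6 and DHRS9 had one of −0.87. These correlations describe libraries that share the dose groups, and no p is given.

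The genes most like each DEG were taken by the Pearson correlation of log2 CPM over the 12 libraries, among genes with a mean of at least 5 CPM. For ALDH1A3 they were ADGRF1 (0.99), CYP1B1 (0.99), CYP1A1 (0.98), CYP1B1-AS1 (0.98) and TIPARP (0.97), and the most opposed were TLE1 and FAM83F (both −0.95). CYP1A1, CYP1B1 and TIPARP are textbook targets of the aryl hydrocarbon receptor. CYP1B1 had mean levels of 47.8, 121, 386 and 335 CPM in the vehicle, low, medium and high groups, and ADGRF1, an adhesion receptor, had 30.6, 44.7, 82.0 and 73.8 CPM. Like ALDH1A3, both had a higher mean at the medium than at the high dose. TIPARP, at 64.7, 108, 174 and 185 CPM, and CYP1A1, at 0.285, 3.78, 90.0 and 98.4 CPM, did not. TLE1, a transcriptional corepressor, had means of 48.2, 44.5, 38.7 and 37.7 CPM.

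**Figure D3:**
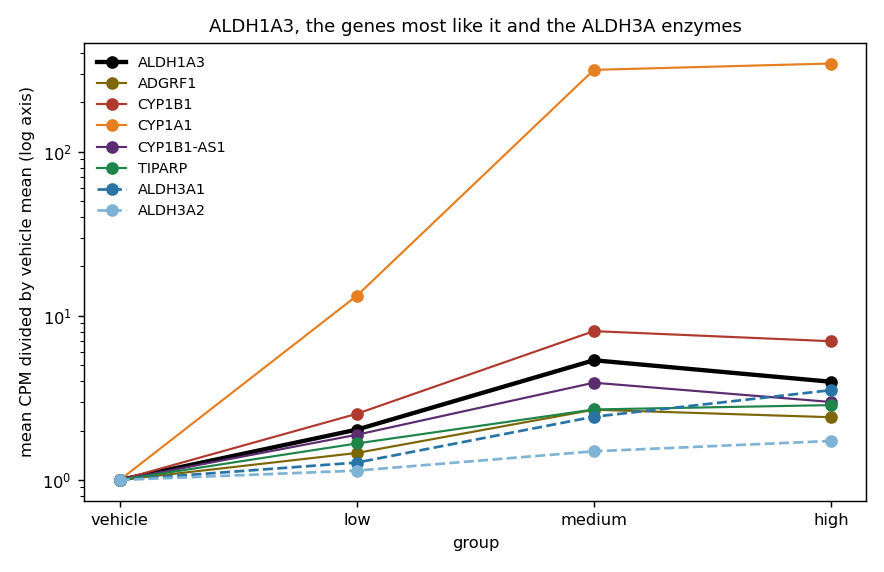
Mean CPM of each group divided by the mean of the vehicle group, on a log axis, for ALDH1A3, the 5 genes most like it and, dashed, ALDH3A1 and ALDH3A2. ALDH1A3, CYP1B1, CYP1B1-AS1 and ADGRF1 peak at the medium dose, and ALDH3A1 and ALDH3A2 are highest at the high dose; CYP1A1 starts from 2 to 13 counts in the vehicle libraries.

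For ADH6 the genes most alike included NOX1 (0.98), KCNE3 (0.98), BTG2 (0.97) and CRYZL2P (0.97). NOX1, the colonic superoxide-producing oxidase, had means of 17.7, 16.8, 11.7 and 7.47 CPM in the vehicle, low, medium and high groups. For ADH1C they were FLRT3 (0.96), ARL15 (0.94), SLC38A11 (0.94), HNF4G (0.94) and BTG2 (0.94). BTG2, an antiproliferative gene, was thus on both lists, at 40.7, 43.3, 32.8 and 20.0 CPM, and HNF4G, a nuclear receptor of the gut epithelium, was at 53.3, 56.7, 49.8 and 40.2 CPM. MT-RNR1 was the most opposed to both ADH6 (−0.98) and ADH1C (−0.96), followed by WARS1 for ADH6 (−0.97) and MT-RNR2 for ADH1C (−0.95). For DHRS9 the most alike were JUNB (0.94), LAT (0.92), PDE9A (0.92), ST6GALNAC4 (0.91) and EIF4EBP1 (0.91), and RAB27B (−0.93) and BCAS3 (−0.91) were the most opposed.

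Beside the 10 genes, 68 genes of the same pathways were taken in 6 lists, of which 43 had enough counts to be tested and 25 did not. With the high dose, 2 of the 43 were DEGs, ALDH3A1 and ALDH3A2, both higher. That is 4.65% of the 43, against 2.93% of all genes tested, and 11 of the 43 (25.6%) had an unadjusted p under 0.05, against 20.1%. ALDH3A1 was the 1 DEG with the medium dose (2.33% of the 43, against 0.676%). For the low dose edgeR called 0, with 5 (11.6%) at an unadjusted p under 0.05, against 7.95% of all genes tested, and DESeq2 called 0. The median log2 fold change of the 43 at the high dose was 0.04, with 24 above and 19 below 0. The lists were also chosen with earlier results of these data known. Nothing is therefore read from their shares against the background, and p-values of list genes are given as a description.

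ALDH3A1, which oxidises aromatic and fatty aldehydes in the cytosol, was at 22.9, 21.5 and 20.7 CPM in the vehicle libraries and at 26.7, 27.2 and 29.1 CPM at the low dose. The medium-dose libraries held 51.7, 52.7 and 53.6 CPM, and the high-dose libraries held 74.0, 81.4 and 74.1 CPM. The groups did not overlap and followed the order of the dose. ALDH3A1 rose by a log2 fold change of 1.82 ± 0.07 at the high dose (adjusted p = 3.43e-08, edgeR) and of 1.28 ± 0.07 at the medium dose (adjusted p = 1.67e-06), and the low-dose value was 0.35 ± 0.07 (adjusted p = 0.0993). Its relative ALDH3A2, the fatty aldehyde dehydrogenase, was at 100, 108 and 114 CPM in the vehicle libraries and at 184, 181 and 189 CPM at the high dose. ALDH3A2 rose by a log2 fold change of 0.78 ± 0.07 (adjusted p = 3.59e-05, edgeR). The medium-dose value, 0.58 ± 0.07 (adjusted p = 0.00122), lay just under the 1.5-fold threshold and passed it without vehicle replicate 2, vehicle replicate 3 or medium-dose replicate 1. Unlike ALDH1A3, neither had a lower mean at the high than at the medium dose.

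The other tested aldehyde dehydrogenases had smaller differences. ALDH18A1 (log2 fold change 0.10, adjusted p = 0.376, edgeR), of proline synthesis, and ALDH3B1 (0.16, adjusted p = 0.338) were among the most abundant. ALDH1L1, of folate metabolism, at 0.40 (adjusted p = 0.0405), and ALDH5A1, of GABA breakdown, at −0.38 (adjusted p = 0.0427), passed the adjusted p, as did 5.77% of the genes tested, but not the fold threshold, and were chosen after their values were seen. In the list of ethanol oxidation, edgeR and DESeq2 called 0 of 3 at the high dose, with 1 at an unadjusted p under 0.05. That was ACSS1, the mitochondrial enzyme that activates acetate, at 67.9, 70.1 and 71.0 CPM in the vehicle libraries and 52.3, 54.0 and 51.3 CPM at the high dose (log2 fold change −0.41 ± 0.06, adjusted p = 0.00179). CAT, catalase, had −0.04 (adjusted p = 0.834) and ACSS2, the cytosolic relative of ACSS1, 0.03 (adjusted p = 0.909).

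Of the other retinol and retinal oxidoreductases, 0 of 5 were DEGs at the high dose in edgeR and DESeq2, with 1 at an unadjusted p under 0.05. That was RDH5, a retinol dehydrogenase known from the retinal pigment epithelium and chosen after its values were seen. It was at 2.64, 3.52 and 2.55 CPM in the vehicle libraries and at 2.25, 2.05 and 1.81 CPM in the high-dose ones, all below vehicle (log2 fold change −0.53 ± 0.16, adjusted p = 0.0844, edgeR). RDH13, RDH14 and DHRS4 had log2 fold changes of −0.04 (adjusted p = 0.791, edgeR), 0.26 (adjusted p = 0.317) and −0.18 (adjusted p = 0.465). Retinoid uptake and binding genes gave 0 DEGs of 7 in edgeR, 3 at an unadjusted p under 0.05 and 1 DEG, RBP4, in DESeq2 on all 12 libraries. SCARB1, a carotenoid transporter, was at 0.24 (adjusted p = 0.0953, edgeR), CRABP2, which carries retinoic acid to its receptor, at 0.04 (adjusted p = 0.908), and DGAT1, which can esterify retinol, at 0.04 (adjusted p = 0.838). RBP4, the plasma carrier of retinol, chosen after its values were seen, was at 1.54, 1.79 and 2.24 CPM in the vehicle libraries and at 3.65, 3.33 and 2.52 CPM at the high dose (log2 fold change 0.75 ± 0.21, adjusted p = 0.0586, edgeR). Beside that DESeq2 fit, RBP4 was a DEG in edgeR when low-dose replicate 1, high-dose replicate 2 or high-dose replicate 3 was left out.

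The retinoic acid receptors gave 0 DEGs of 4 in edgeR and DESeq2 and 0 at an unadjusted p under 0.05. RARG, RXRA and RXRB had log2 fold changes of 0.09 (adjusted p = 0.71, edgeR), 0.08 (adjusted p = 0.834) and −0.11 (adjusted p = 0.383). In high-dose replicate 2, RXRA was at 130 CPM, against 218 and 220 CPM in the other high-dose libraries and 172 to 187 CPM with vehicle. RARG was at 100 CPM in it, against 135 and 130 CPM, and at 107 to 126 CPM with vehicle. RXRB did not stand apart there (40.4, 39.6 and 41.9 CPM). Among genes known to respond to retinoic acid, 0 of 10 were DEGs in edgeR and DESeq2, with 1 at an unadjusted p under 0.05. TGM2, transglutaminase 2, had a log2 fold change of −0.11 (adjusted p = 0.633, edgeR) and NRIP1, a nuclear receptor corepressor, 0.13 (adjusted p = 0.662). Both were lowest of the high-dose group in high-dose replicate 2, TGM2 at 286 CPM (against 382 and 394) and NRIP1 at 73.1 CPM (against 104 and 108). PLAAT4, a retinoid-induced growth inhibitor, was at 21.4, 16.4 and 16.2 CPM in the vehicle libraries and at 10.2, 16.8 and 10.8 CPM at the high dose (log2 fold change −0.54 ± 0.17, adjusted p = 0.0965). The high value was that of high-dose replicate 2, and without this library PLAAT4 was called lower, at −0.76. The genes that degrade or store retinoids could in part not be tested: CYP26A1 had at most 9 counts in a library, and LRAT had 0 in all 12 (both chosen after their values were seen).

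**Figure D4:**
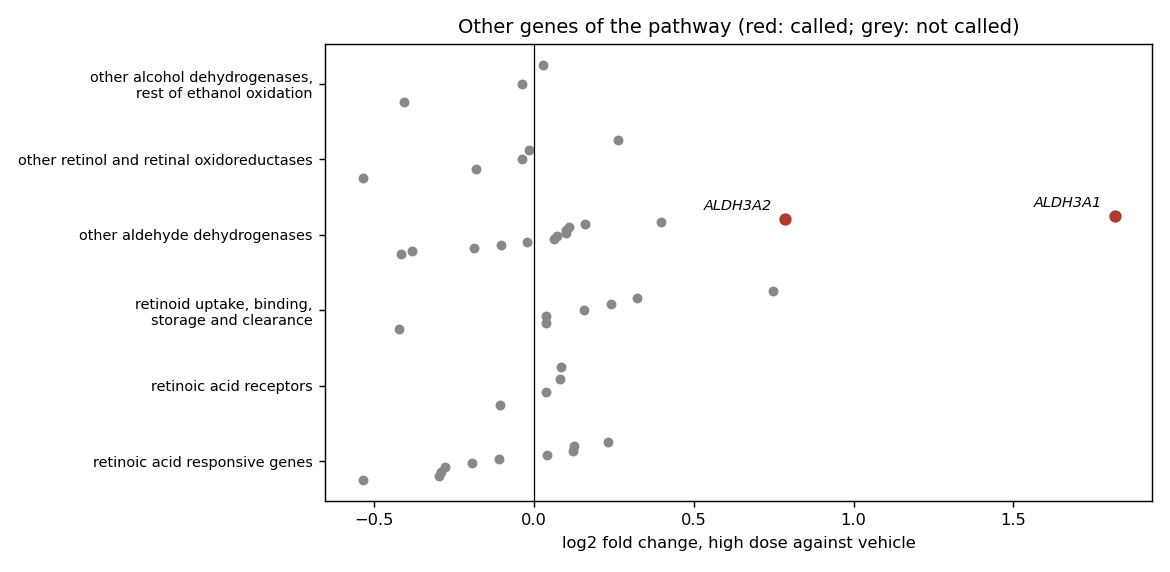
Log2 fold change at the high dose against vehicle of the 43 tested genes of the 6 pathway lists, 1 point per gene and 1 row per list. The 2 DEGs, ALDH3A1 (1.82) and ALDH3A2 (0.78), are in red and both belong to the other aldehyde dehydrogenases; RBP4 (0.75) is the grey point farthest to the right.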

How the data were processed

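HT29 cells were lysed after 24 h, and directional mRNA libraries were sequenced by the authors on an MGISeq system. Adapters were removed by the authors with Trim Galore, reads were aligned to GRCh38 with STAR, and RSEM 1.3.3 gave an expected count for each gene. The methods and the submitters' processing notes give different versions of Trim Galore (0.6.5 in the notes) and STAR (2.7.3a in the notes), and the strand setting of RSEM is not given in the sources used here. The authors deposited the expected counts without normalization, for 60675 IDs in 12 libraries.

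The expected counts were rounded and tested with edgeR 4.0.16 in R 4.3.3, by its quasi-likelihood test with robust estimation after filterByExpr and TMM scaling. The model held 1 term per group. The filter left 15374 genes, of 29696 with a count, at a biological coefficient of variation of 11.24%. Benjamini–Hochberg adjustment was made over all genes tested. The thresholds for a DEG were 0.05 for the adjusted p and 1.5 for the fold change. Standard errors come from the F statistic, log2 CPM used a prior count of 2, and the test was tried on simulated data with 200 changed genes. No source says that the libraries of a group are separate cultures, so p-values measure the spread between libraries, which may be technical. No libraries were duplicates. Totals of 15941255 to 33866644, with a median of 23833237, limit the precision of genes with few counts.

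The 10 genes and the gene lists were chosen with earlier results of these data known. The genes named are the 10, every DEG of the 6 lists and the 3 tested genes of each list with the highest mean CPM, the 5 most alike and 2 most opposed genes for each of the 10 that was a DEG at the high dose (mean of at least 5 CPM), and CYP1A1. Of these, 1 gene is not reported here. Named outside this rule are the cell markers, the other genes of the ADH cluster and those that flank it, and the antisense genes, taken by list or position. ALDH1L1, ALDH5A1, RBP4, RDH5, CYP26A1 and LRAT were picked with their values in view. Coordinates are from GENCODE 44 (GRCh38), which holds 98.1% of the IDs with a count, and promoters are from RefSeq. DESeq2 1.42.0 was run as an alternative on the 12 libraries and on each pair of groups, as was edgeR on each pair. Other alternatives were the size factors of DESeq2, no filter (29696 genes), a minimum of 10 counts in each library (13229 genes), no fold threshold, a block for the replicate number, and leaving out 1 library at a time.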

Additional observations from a re-analysis of the deposited data

How the results depend on the processing

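ALDH1A3 was a DEG at every dose, and ADH1C and ADH6 were DEGs at the high dose, under all 19 alternatives that keep the fold threshold. DHRS9 was a DEG at the high dose in 15 of the 19, and the DEGs among the 10 numbered 3 to 4. With no minimum fold change, the medium dose gained ADH6 (2 of the 10), where 1.01% of the genes tested passed. For the 43 tested genes of the 6 lists, the high dose gave 5 without the fold threshold, where 5.77% of the genes tested passed. It gave 2 to 4 with each library left out (4 without high-dose replicate 2). The medium dose gave 2 without the filter on counts, 2 without the fold threshold (1.01% of the genes tested) and 1 to 2 with each library left out. Shares over all genes are not given for the other settings, and nothing is read from these counts. The replicate numbers gave no sign of pairing, though this check cannot exclude it. Same-number libraries correlated between −0.264 and 0.139 after removal of group means, over 0.1 in 4 of 18 pairs. Of the 12 libraries, 3 correlated best with their own number. With the replicate number as a block, 4 of the 10 were DEGs at the high dose, and the counts for the other doses and for the lists were the same as without it. Small log2 fold changes at the high dose changed sign when 1 library was left out: CAT ranged from −0.0928 to 0.0127, ACSS2 from −0.0473 to 0.0786, CRABP2 from −0.0791 to 0.1636, RXRA from −0.0386 to 0.2898 and TGM2 from −0.1922 to 0.0232. ADH5 and RDH11 did so without high-dose replicate 2, as given above. The causes were not tested. DESeq2 scaling moved the median log2 fold change of all genes to 0.01 at most. ADH1C and DHRS9, with 10 to 79 and 11 to 59 counts per library, are limited by depth.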
